A study of Mus musculus with 8 samples.

Results

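Cluster #p1 is one of 4 hepatocyte clusters that the authors' multilevel clustering of parenchymal cells gave in the adult mouse liver. Its members are all cells that carry this cluster number in the deposited cell annotation, with no choice by marker or level. It holds 64 of the 203 hepatocytes, 64 of the 397 parenchymal cells (hepatocytes and cholangiocytes) and 64 of the 3491 cells of the series. The other hepatocyte clusters hold 23 cells (#p3), 59 cells (#p4) and 57 cells (#p5), and the cholangiocyte cluster #p2 holds 194. Of the 64 cells, 62 came from male and 2 from female livers, while #p3, #p4 and #p5 hold male cells alone.

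The livers came from adult C57BL6/J mice and from reporter mice with fluorescent alleles, each in 1 copy. A gene of mesenchymal, mural or endothelial cells drove each allele (Pdgfrb-GFP, Pdgfra-H2bGFP, Cspg4-dsRED, Acta2-GFP or Cldn5-GFP), and combinations of these strains were also used. Cells were dissociated with enzymes at body temperature, and no mouse was treated. Hepatocytes were sorted as a small number of living cells without an antibody, so their number does not follow their share of the liver. Each cell was sequenced by Smart-seq2, a plate method that copies polyadenylated RNA of a single cell over its whole length. The cell annotation names the sex and the plate of a cell but not its mouse, the male parenchymal cells are 1 pooled sample, and the clusters were made from the same counts. Differences between clusters are therefore given as descriptions without a test, and their intervals cover counting error only.

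Hepatocytes make most plasma proteins, store and release glucose, turn ammonia into urea and make bile acids. They divide this work along the blood flow of the lobule. Cells near the portal vein are rich in enzymes of gluconeogenesis and of the urea cycle, and cells near the central vein are rich in glutamine synthetase and cytochrome P450 enzymes. Each gene of such a set therefore places a hepatocyte on the axis from portal to central vein.

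The cells of #p1 were scattered over more plates than those of the other hepatocyte clusters. They lay on 12 of the 22 plates of the series, and 5 of these plates held 1 cell of #p1 each. In contrast, 131 of the 139 cells of #p3, #p4 and #p5 came from plate liver_128s, and all 139 came from 4 plates. Plate liver_128s gave 24 cells of #p1, plate liver_707s gave 12, plates liver_319s and liver_705s gave 8 each, and plate liver_708s gave 3. On plate liver_707s #p1 made up 12 of 13 cells, or 92.3%, whereas on plates liver_061s and liver_845s it was 1 cell among 135 and 257 endothelial cells. In all, 24 cells of #p1 lay on 9 plates that held no cell of #p3, #p4 or #p5. Plate liver_128s is the plate on which #p1 and the other hepatocyte clusters can be compared in number, and values within it stand below beside many of the pooled ones.

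**Figure D1:**
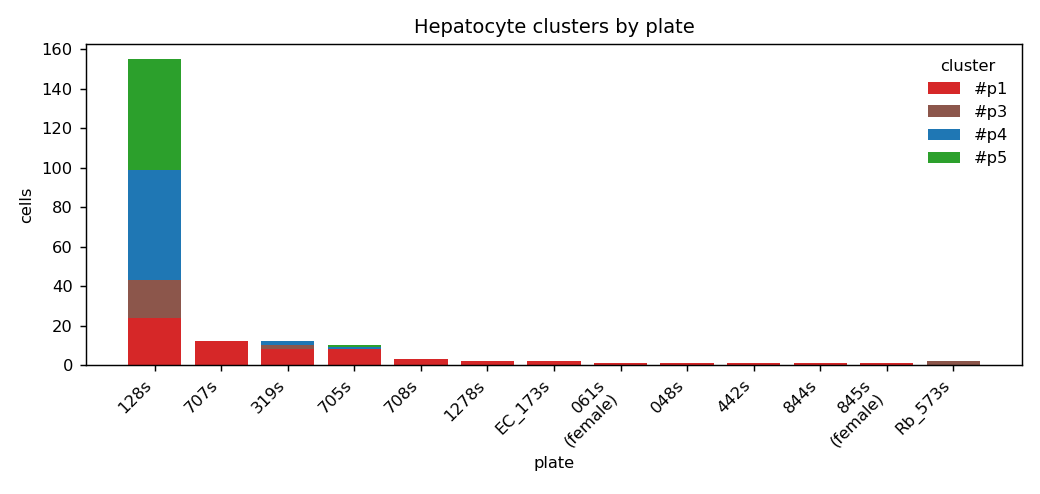
Number of cells of the 4 hepatocyte clusters (y axis) on each plate that held any of them (x axis), with bars stacked by cluster and the plates of female cells marked. Plate liver_128s holds 24 cells of #p1 and 131 of the 139 cells of #p3, #p4 and #p5, and the remaining 40 cells of #p1 lie on 11 other plates.

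The hepatocyte markers were present in #p1. *Alb*, the gene of serum albumin, had a count in 64 of 64 cells (100%, exact binomial 95% interval 94.4% to 100%), and *Apoa1*, the main protein of high-density lipoprotein, in 62 of 64 (96.9%, 89.2% to 99.6%). *Krt18*, a keratin of simple epithelia, was counted in 38 of 64 cells (59.4%, 46.4% to 71.5%). At a limit of 20 counts these shares were 93.8%, 87.5% and 42.2%. Summed over the male cells and scaled to counts per 1000000 (CPM), *Alb* stood at 5889 CPM in #p1, against 10274 in #p3, 8237 in #p4, 4267 in #p5 and 3545 in #p2. *Apoa1* stood at 2151 CPM in #p1 against 3860, 2279 and 1137 in #p3, #p4 and #p5, and at 50.2 CPM in #p2. *Krt18* was higher in #p1, at 707 CPM, than in #p3 (338), #p4 (525) or #p5 (438), although a smaller share of #p1 cells had a count. That share was 59.4% in #p1 against 82.6%, 91.5% and 77.2% in #p3, #p4 and #p5.

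Several defining markers of the cholangiocyte list of 10 genes were at or near 0 in #p1. *Krt19* and *Krt7*, keratins of bile duct cells, stood at 0.11 CPM each, from 1 male cell each, and the duct adhesion protein *Epcam* at 1.08 CPM, against 487, 410 and 1024 CPM in #p2. *Cldn4* and *Cftr* had no count in the 62 male cells, which allows a share of up to 4.84% of cells with a count. *Spp1*, a secreted phosphoprotein, stood at 40.4 CPM of the list's 75.6 CPM, and the list summed to 32.2, 133 and 121 CPM in #p3, #p4 and #p5. The sum lay in few cells, with a median of 0 and a highest value of 2788 CPM over the 62 male cells, and stood at 421 CPM on plate liver_319s and at 27.6 CPM on plate liver_128s.

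The libraries of #p1 held fewer counts and fewer genes than those of the other hepatocytes. The 64 cells held a median of 131878 counts (lowest 53295, highest 378813), against 153581, 204679 and 149112 in #p3, #p4 and #p5. They held a median of 2181 genes with a count (1474 to 4087), against 3418 (2172 to 5392), 3909 (1840 to 6626) and 2917 (1689 to 4677). With every male cell thinned to 50000 counts, the median was 1616 genes in #p1 and 2787, 2854 and 2209 in #p3, #p4 and #p5, and on plate liver_128s alone it was 1970 in #p1 against 2756, 2886 and 2230.

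ERCC spike-ins, synthetic RNAs added to each well, took a larger share of #p1 than of the other clusters. They made up a median of 5.72% of the counts of a #p1 cell (2.19% to 9.70%), against 1.58% (0.53% to 3.40%) in #p3, 1.36% (0.77% to 5.95%) in #p4, 2.33% (1.07% to 6.22%) in #p5 and 1.25% (0.37% to 8.42%) in #p2. On plate liver_128s the medians were 5.65% in #p1 and 1.84%, 1.32% and 2.28% in the other 3 clusters, so the higher share in #p1 was also seen within the plate. Over the 12 plates the depth of #p1 varied, with plate medians from 53333 to 224174 counts. On plate liver_128s its cells were shallow, at a median of 74225 counts, and on plate liver_707s they were deep, at 216843, yet plate liver_707s gave the fewest genes of the 4 plates with 8 or more #p1 cells, with a median of 1628. Less RNA in a cell and less RNA captured from it cannot be told apart by the spike-in share.

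**Figure D2:**
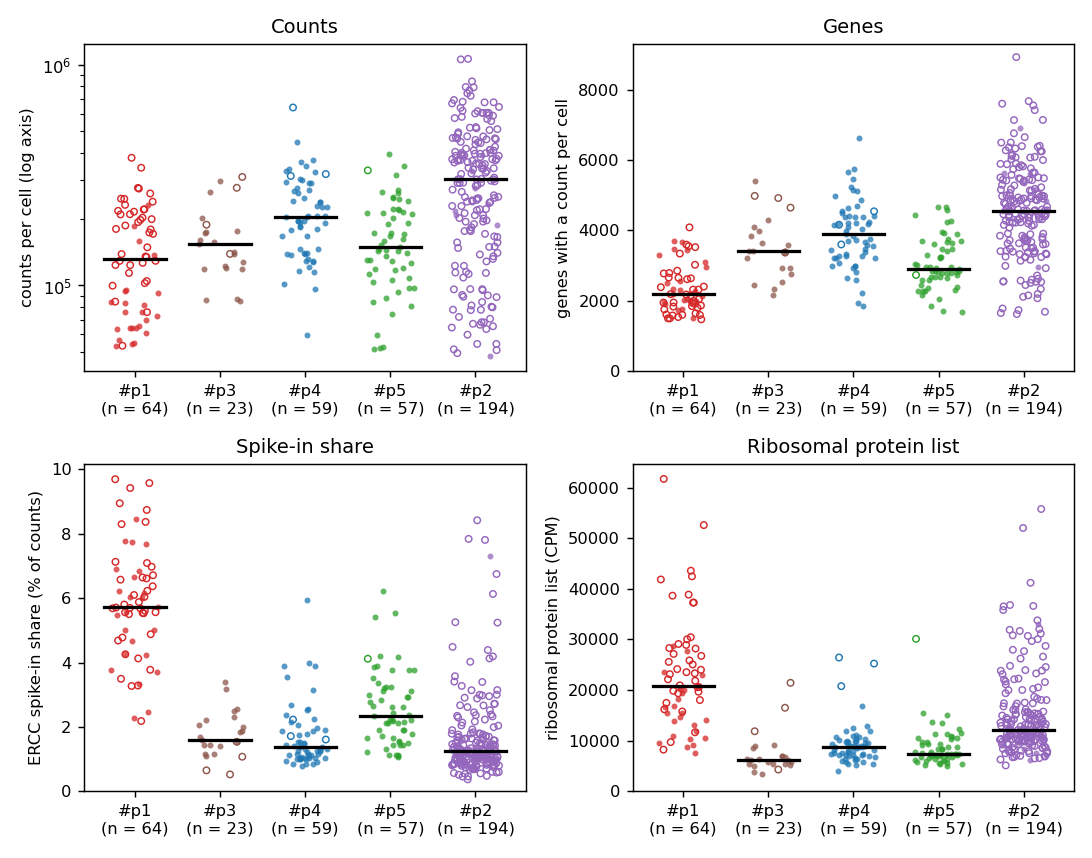
Counts per cell (log axis), genes with a count, share of ERCC spike-ins in percent and summed CPM of 84 ribosomal protein genes in each parenchymal cell, by cluster, with filled points for plate liver_128s, open points for other plates and black lines for medians over all cells. The #p1 cells have the median of 2181 genes, the median spike-in share of 5.72% and ribosomal protein levels that mostly lie above those of #p3, #p4 and #p5.

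Along the portal to central axis #p1 was mixed. The 16 periportal genes summed to 11957 CPM in #p1, between #p4 (16717) and #p3 and #p5 (4859 and 3765). The 22 pericentral genes summed to 8952 CPM in #p1, again between #p4 (3503) and #p3 and #p5 (23426 and 21213). For plate liver_128s alone the periportal sum was 4890 CPM in #p1, close to #p3 (4257) and #p5 (3740) and far from #p4 (17371), and the pericentral sum was 14425 CPM against 26221, 3009 and 21611. The pooled sums hid wide differences between cells. The periportal sum ran from 8.09 to 32488 CPM over the 62 male cells (median 8488), and the pericentral sum from 0 to 51688 CPM (median 8276). In #p4 the periportal sum never fell under 9452 CPM and in #p5 it never passed 10518 CPM.

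A log2 ratio of the pericentral to the periportal sum, each with 100 CPM added, placed every cell on this axis. It ran from -8.03 to 8.39 over the 64 cells of #p1, with a median of -0.08. In #p4 it ran from -7.08 to 0.30 (median -2.80) and in #p5 from 0.14 to 7.84 (median 2.44). Of the 64 #p1 cells, 29 lay in the range of #p4 alone, 24 in that of #p5 alone, 2 in both and 9 in neither, and 31 had more pericentral than periportal CPM. The 2 sums went apart across the 64 cells (Spearman's rho = -0.81, across cells that share plates and a fixed total per cell), as they did across #p3 (rho = -0.81, 23 cells) and #p5 (rho = -0.67, 57 cells), with a weaker relation in #p4 (rho = -0.34, 59 cells).

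**Figure D3:**
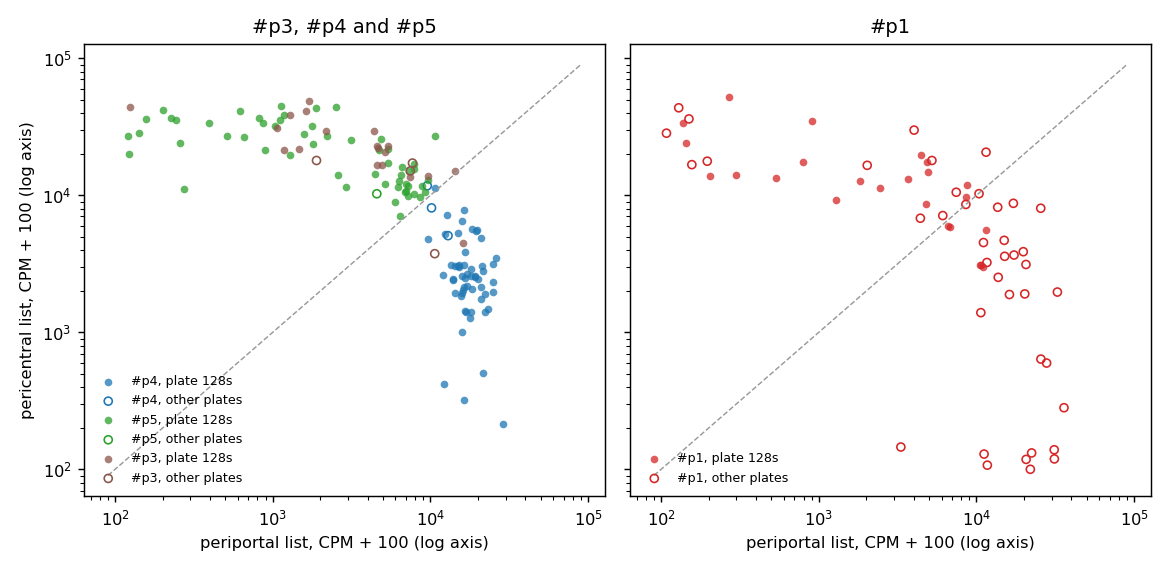
Summed CPM of 16 periportal genes (x axis) and 22 pericentral genes (y axis), each with 100 CPM added and on a log axis, in every cell of #p3, #p4 and #p5 (left) and of #p1 (right), with filled points for plate liver_128s, open points for other plates and a dashed line where the sums are equal. The #p1 cells span the ranges of #p4 and #p5, with 29 in the range of #p4 alone and 24 in that of #p5 alone.

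The side of the axis differed with the plate. On plate liver_128s 18 of 24 cells of #p1 had more pericentral than periportal CPM (median log2 ratio 1.998), and on plate liver_319s 6 of 8 did (4.88). On plate liver_705s 3 of 8 did (-1.48) and on plate liver_707s 4 of 12 (-2.77), and over all plates other than liver_128s the number was 13 of 40. Across the 64 cells of #p1 the ratio went down with the total counts of a cell (Spearman's rho = -0.42, across cells that share plates, whose depths differed), while rho was 0.13, 0.23 and -0.16 in #p3, #p4 and #p5. The part of the plate in the zonal mix was not tested.

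Single genes showed both programmes. *Hal*, histidine ammonia-lyase of the periportal zone, stood at 897 CPM in #p1 against 82.5 in #p3, 1899 in #p4 and 14.1 in #p5. Its median over the #p1 cells was only 7.33 CPM, with a range from 0 to 5480, and it had a count in 34 of 62 male cells. *Gls2*, the liver glutaminase that frees ammonia for the urea cycle, stood at 974 CPM in #p1, 827 in #p4 and 50.8 and 36.6 in #p3 and #p5. *Sds*, serine dehydratase, stood at 691 CPM against 15.4, 570 and 7.10 in #p3, #p4 and #p5, from 22 of 62 cells, and *Pck1*, the rate-limiting enzyme of gluconeogenesis, at 1788 CPM against 343, 2121 and 265. *Aldh1b1*, a mitochondrial aldehyde dehydrogenase, rested on 11 cells of #p1 and stood at 455 CPM, against 383 in #p4 and at most 1.05 in #p3 and #p5.

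These genes divided by plate as the sums did. On plate liver_128s the level in #p1 was 485 CPM for *Hal*, 312 for *Gls2*, 49.5 for *Sds*, 167 for *Pck1* and 1.40 for *Aldh1b1*, against 2027, 867, 631, 2183 and 424 CPM in the #p4 cells of that plate. The highest level of *Pck1* over the 4 plates with 8 or more #p1 cells was 3790 CPM, and that of *Gls2* was 1520 CPM. Against #p4, 7 of the 16 periportal genes were 2-fold or more lower in #p1 and 1 was higher in the pooled cells, while on plate liver_128s 13 of 15 were lower and none was higher.

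On the pericentral side *Glul*, glutamine synthetase of the cells next to the central vein, stood at 539 CPM in #p1 against 997 in #p3, 41.4 in #p4 and 2365 in #p5. Its median over the cells was 8.91 CPM and its plate levels ran from 0.61 to 1397 CPM. *Cyp2e1*, the ethanol-metabolising cytochrome P450, stood at 2335 CPM against 4561, 201 and 2770, with a median of 2073 CPM over the cells and a count in 53 of 62. *Oat*, ornithine aminotransferase, stood at 1494 CPM against 2597, 121 and 4259. On plate liver_128s these 3 genes stood at 1397, 4049 and 2199 CPM in #p1 and at 45.6, 73.7 and 35.6 CPM in #p4, so #p1 exceeded #p4 there by more than in the pooled cells. *Glul* passed 20 counts in 12 of 64 cells, and its highest level in a cell was 9438 CPM. Other genes of the pericentral list had few counts in #p1. *Axin2* had no count in the 62 cells, *Lgr5* and *Tbx3*, a receptor and a transcription factor of Wnt-responsive cells, stood at 0.11 and 0.65 CPM, and *Slc1a2*, a glutamate transporter, at 4.74 CPM against 181 in #p3 and 28.5 in #p5.

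Genes of the 2 programmes were also counted together cell by cell. With 20 counts as the limit, *Cyp2e1* and *Hal* were both present in 4 of 64 cells of #p1, *Cyp2e1* without *Hal* in 36 and *Hal* without *Cyp2e1* in 15. Both were present in 2 of 23 cells of #p3, 8 of 59 of #p4 and 2 of 57 of #p5, so they met in few cells of every hepatocyte cluster. *Oat* and *Sds* were both present in 2 cells, *Oat* alone of this pair in 24 and *Sds* alone in 14. *Ass1*, argininosuccinate synthase, is spread more widely along the lobule, and it met *Cyp2e1* in 21 of the 64 cells, against 16 of 23 in #p3, 9 of 59 in #p4 and 31 of 57 in #p5.

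In male cells, the summed counts of #p1 were set against those of each other parenchymal cluster. Such sums can rest on few cells, and they do not set the zones aside. A gene was compared where both clusters together held 20 counts or more, and the 2-fold limit was set on log2(CPM + 1). Against #p3, 3267 of 10425 genes (31.3%) were higher and 3408 (32.7%) lower in #p1. Against #p4, 2462 of 11856 (20.8%) were higher and 4271 (36%) lower, and against #p5, 2771 of 11178 (24.8%) were higher and 3811 (34.1%) lower. Against the cholangiocytes of #p2, 2502 of 16747 (14.9%) were higher and 8809 (52.6%) lower, so a count of list members past the limit is read against these shares. The median log2 ratio of all genes was 0.12, -0.27, -0.14 and -1.14 in the 4 comparisons. Scaling by TMM or by median-of-ratios factors shifted it to -0.21 or -0.09 against #p4 and to -0.69 or -0.44 against #p2, and for #p2 moved the higher genes from 22.1% to 33.1% or 37.0% of those past the limit.

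On plate liver_128s alone the genes lower in #p1 outnumbered the higher ones further. There 1863 of 11010 genes (16.9%) were higher and 5302 (48.2%) lower than in #p4, with a median log2 ratio of -0.88. Against #p5 2025 of 10216 (19.8%) were higher and 4727 (46.3%) lower, with a median of -0.72. Against #p3 the counts were 2333 higher (28.2%) and 3327 lower (40.2%) of 8280, with a median of -0.26, and counts of list members on this plate are read against these shares.

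Ribosomal protein genes, which encode the protein part of the ribosome, were higher in #p1 than in the other hepatocyte clusters. The 84 genes summed to 24547 CPM in #p1 against 8408 in #p3, 9917 in #p4 and 9040 in #p5, and 14277 in #p2. Over the 62 cells the sum ran from 7552 to 61696 CPM with a median of 21399, against medians of 6221, 8714 and 7444 CPM in #p3, #p4 and #p5. Of the 77 genes with enough counts, 72 were 2-fold or more higher than in #p3, 63 than in #p4 and 64 than in #p5, and none was lower, beside the 31.3%, 20.8% and 24.8% of all genes. Against the cholangiocytes of #p2, 27 of 78 were higher and 1 lower, beside 14.9% and 52.6% of all genes. Against #p3, #p4 and #p5 the median log2 ratios were 1.72, 1.59 and 1.77.

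The ribosomal proteins were higher within plate liver_128s too, though by less. There the sum was 16038 CPM in #p1 and 6213, 8487 and 8283 CPM in #p3, #p4 and #p5, and 64, 36 and 39 of 77 genes were 2-fold or more higher and none lower. Over the 24 cells of #p1 on that plate the sum ran from 7552 to 28713 CPM, which overlapped the ranges of #p3 (3421 to 9217), #p4 (4099 to 16859) and #p5 (5003 to 15435). The 4 plates with 8 or more cells ranged from 16038 to 36225 CPM, with the highest on plate liver_319s. Among the genes, *Rpl32* of the large subunit stood at 611 CPM against 126, 140 and 120 in #p3, #p4 and #p5, *Rps16* of the small subunit at 451 CPM against 91.9, 105 and 89.2, and *Rplp2* of the ribosomal stalk at 293 CPM against 61.8, 62.4 and 42.7. On plate liver_128s these 3 genes stood at 278, 145 and 89.3 CPM in #p1, and at most at 106, 87.0 and 40.4 CPM in the others. Many ribosomal protein genes have near-identical pseudogenes, so the split of reads among their members is uncertain.

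Among all 30 clusters of the series, 215 genes had their highest level in #p1 and a count in at least 50% of its cells, and 24 of them exceeded the next cluster 2-fold. The same count was not made for the other clusters, so these numbers alone do not set #p1 apart. The leading one was *Cox7b*, a small subunit of cytochrome c oxidase, at 446 CPM summed over all 64 cells, against 123 in the next highest cluster, an immune one. *Uqcrq*, a subunit of respiratory complex III, stood at 745 CPM against 239 in #p4, *Ndufb2* of complex I at 217 CPM against 77.8 in an immune cluster, and *Romo1*, a modulator of reactive oxygen species in mitochondria, at 280 CPM against 116 in another immune cluster. *Sod1*, the copper and zinc superoxide dismutase, stood at 1234 CPM against 504 in an immune cluster, *Dbi*, an acyl-CoA binding protein, at 1414 against 586 in #p2, and *Ddt*, a tautomerase, at 1062 against 433 in #p4. *Hint2*, *Rps27l* and *Wfdc21* completed the 10 leading genes, at 337, 377 and 361 CPM. On plate liver_128s *Cox7b* stood at 163 CPM in #p1 and at 70.8 to 99.9 CPM in the other 3 clusters, so there it was under 2-fold over #p3 and #p4. The levels given for the other leading genes are pooled over plates.

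A list of 81 nuclear genes of the respiratory chain and ATP synthase, put together after these values were seen, summed to 30226 CPM in #p1 and to 15342, 21201 and 17703 CPM in #p3, #p4 and #p5. Of 75 compared, 57, 49 and 56 were 2-fold or more higher in #p1 than in #p3, #p4 and #p5, beside 31.3%, 20.8% and 24.8% of all genes. On plate liver_128s the numbers were 16 of 74, 3 of 75 and 20 of 74, against 28.2%, 16.9% and 19.8% of all genes there, and 3, 7 and 6 members were lower in #p1. The lower members compare with 40.2%, 48.2% and 46.3% of all genes, and the list's median log2 ratios were 0.54, 0.19 and 0.63, above the -0.26, -0.88 and -0.72 of all genes. Genes of the mitochondrial genome took a median of 1.48% of the counts of a male #p1 cell (0.068% to 6.49%), against 0.40%, 0.55% and 0.37% in #p3, #p4 and #p5 and 1.56% in #p2. Their sum was 16269 CPM in #p1 against 12460, 6220 and 4912 CPM in #p3, #p4 and #p5. Against #p3 none of 25 genes was 2-fold or more higher and 2 were lower, while 17 of 22 and 19 of 20 were higher than in #p4 and #p5 and none lower. On plate liver_128s 9 of 14, 13 of 20 and 15 of 18 were higher and none lower, and the median share was 1.13% in #p1 and 0.28%, 0.58% and 0.38% in the others.

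Short genes tended to be higher and long genes lower in #p1. Summed exon lengths were found for 94.4% to 94.9% of the genes compared with #p3, #p4 and #p5, and the length classes were set after values had been seen. Against #p4, genes under 1000 bases had a median log2 ratio of 0.56, and those of 5000 bases or more one of -0.63, and the 3 classes between lay in order at 0.17, -0.14 and -0.35. Against #p3 the ends were 0.77 and -0.24 and against #p5 0.65 and -0.60. On plate liver_128s they were 0.45 and -0.80 against #p3, 0.15 and -1.47 against #p4, and 0.31 and -1.50 against #p5, so the gradient was steeper there. The 84 ribosomal protein genes had a median exon length of 1730 bases, against 3837 for all genes with 20 counts or more in #p1. For the 79 of 81 respiratory chain genes with a length it was 1465 bases. The part of length in the ribosomal, respiratory chain and mitochondrial results was not tested.

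**Figure D4:**
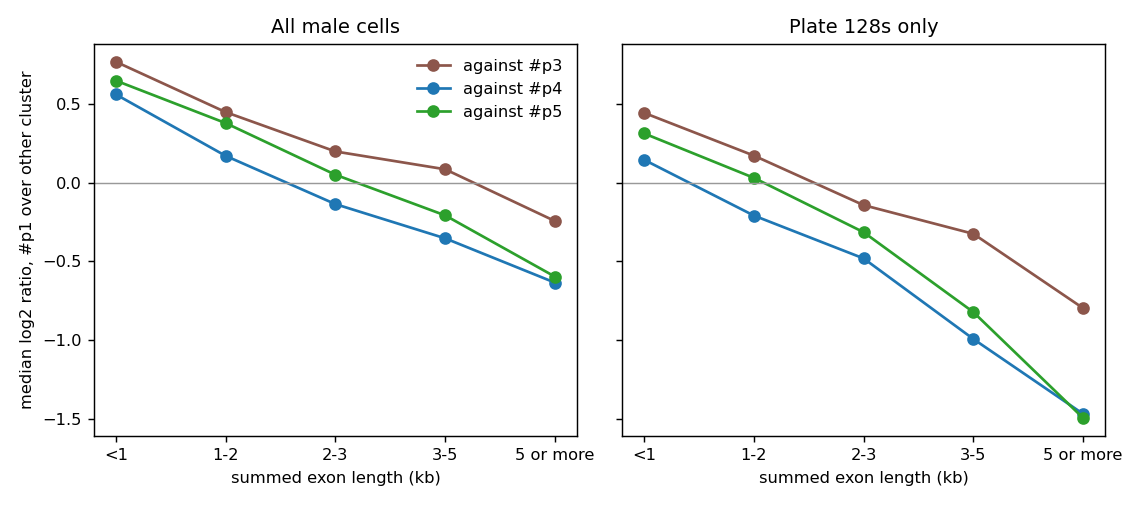
Median log2 ratio of #p1 over #p3, #p4 or #p5 (y axis) for genes in 5 classes of summed exon length in kilobases (x axis), over all male cells (left) and on plate liver_128s (right), with the horizontal line at equal levels. In every comparison the median goes down from class to class, from 0.56 to -0.63 against #p4 over all male cells and from 0.15 to -1.47 on plate liver_128s.

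Plasma proteins are secreted products of the hepatocyte. Their 28 genes summed to 26570 CPM in #p1 against 54020, 37244 and 18770 in #p3, #p4 and #p5. Against #p3 18 of 28 were 2-fold or more lower and none higher, against #p4 11 were lower and none higher, and against #p5 4 were higher and 1 lower. Of all genes 32.7%, 36% and 34.1% were lower, so the share against #p4 was near that of all genes. *Kng1*, kininogen, stood at 115 CPM against 1380, 758 and 121 in #p3, #p4 and #p5, and *Fga*, the alpha chain of fibrinogen, at 476 CPM against 2213, 887 and 137. *Plg*, plasminogen, stood at 82.2 CPM against 693, 303 and 129, from 16 of 62 cells. The alpha-1-antitrypsin gene *Serpina1a*, whose reads are hard to separate from those of its close copies, stood at 979 CPM against 955, 979 and 770. Acute-phase genes summed to 3480 CPM against 8359, 4735 and 1740, and major urinary proteins, also close copies of one another, to 4021 CPM against 8247, 4838 and 2617. On plate liver_128s 14 of 28 plasma protein genes were lower than in #p3 and 1 was higher, 10 were lower than in #p4 and none higher, and 13 were higher than in #p5 and 2 lower. There the median log2 ratio of the list against #p4 was -0.58, above the -0.88 of all genes.

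Of 24 genes of apolipoproteins and lipid metabolism, 11 were 2-fold or more lower than in #p4 and 3 higher, and on plate liver_128s 6 were lower, under the 48.2% of all genes there, and 1 higher. Of 23 compared with #p3, 10 were lower and none higher, beside 32.7% and 31.3% of all genes. Of 24 compared with #p5, 5 were lower and 5 higher, beside 34.1% and 24.8%. *Apob*, the very large protein of low-density lipoprotein, stood at 38.1 CPM in #p1 against 764 in #p3, 190 in #p4 and 25.5 in #p5, while the small *Apoc1*, *Apoc3* and *Apoc4* stood at 1389, 971 and 655 CPM against at most 1085, 806 and 462 CPM in the others. On plate liver_128s *Apoc1* stood at 900 CPM in #p1, under the 1155 CPM of #p3. *Fabp1*, the fatty acid binding protein of the liver, was higher in #p1, at 2844 CPM, than in #p3, #p4 and #p5 (1744, 1669 and 1772), and on plate liver_128s it stood at 3034 CPM against 1914, 1677 and 1755. *Scd1*, the desaturase that makes monounsaturated fat, was lower, at 2601 CPM against 6901, 5822 and 4436, with plates from 317 to 4431 CPM.

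A total of 1567 of 9677 genes (16.2%) were 2-fold or more lower in #p1 than in each of #p3, #p4 and #p5, and 74 of them had a count in at least 50% of the cells of each of those clusters. The 10 with the largest gap held *Herpud1* of the degradation of misfolded proteins in the endoplasmic reticulum (31.1 CPM against 339, 297 and 228 in #p3, #p4 and #p5), *Manf*, a protein of that compartment (9.37 against 196, 132 and 72.4), *Ddost*, a subunit of the enzyme that adds sugar chains to new proteins (6.89 against 156, 107 and 47.5), and *Ssr3*, a subunit of the translocon-associated complex (38.2 against 449, 292 and 213). The others were the cytoskeletal genes *Tln1* and *Septin2*, the cytosolic aconitase *Aco1*, and *Atf7ip*, *Dcaf8* and *Irgm1*. *Aco1* stood at 41.7 CPM against 251, 607 and 602.

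The levels were also lower on plate liver_128s, where *Herpud1* was at 53.7 CPM in #p1 against 197 to 359 in the others and *Ssr3* at 112 against 221 to 568. *Ddost* was at 18.2 CPM there against 49.1 to 201. *Ssr3* had a count in 27 of 62 #p1 cells. After thinning to 50000 counts it had one in 19 of 62, and in 16 of 23, 41 of 59 and 31 of 57 cells of #p3, #p4 and #p5. On plate liver_128s the thinned numbers were 14 of 24, 14 of 19, 40 of 56 and 31 of 56, so there the share in #p1 was not under that in #p5.

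Further genes led the comparison with one cluster. Among those lowest against #p3, *Acsl5*, which activates fatty acids, stood at 2.69 CPM in #p1 against 274, 141 and 37.2 CPM in #p3, #p4 and #p5, and *Lipa*, the lysosomal acid lipase, at 3.66 CPM against 362, 91.1 and 65.7. Among those lowest against #p4, *Cp*, the copper-carrying plasma protein ceruloplasmin, stood at 6.25 CPM against 271, 168 and 26.8, *Dnajc3*, a chaperone of the endoplasmic reticulum, at 3.55 CPM against 228, 150 and 118, and *Sec24a*, a coat protein of the vesicles that leave it, at 1.83 CPM against 63.4, 189 and 269. Against #p5 the list held *Prodh*, proline dehydrogenase, at 19.9 CPM against 356, 123 and 400, and *Sec24c*, a relative of *Sec24a*, at 21.1 CPM against 105, 152 and 326. On plate liver_128s *Dnajc3* stood at 7.94 CPM in #p1 and at 122 to 210 CPM in the others. In the other direction *Ucp2*, a mitochondrial carrier, stood at 207 CPM in #p1 against 9.41 in #p4, but at 15.4 CPM without the cells over 1000 CPM of endothelial or macrophage markers.

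In the other direction, 1401 of 9677 genes (14.5%) were 2-fold or more higher in #p1 than in each of #p3, #p4 and #p5, and 201 of them had a count in at least 50% of the #p1 cells. The 10 with the largest gap held 6 ribosomal protein genes (*Rps21*, *Rplp2*, *Rpl32*, *Rps16*, *Rps23* and *Rps26*) and *Pea15a*, *Eng*, *Msn* and *Ltbp4*. *Eng*, a co-receptor for TGF-beta that endothelial cells carry, stood at 157 CPM against 29.9, 22.0 and 21.4, and *Msn*, moesin, at 76.2 CPM against 15.2, 7.21 and 5.64. On none of the 4 plates with 8 or more #p1 cells did *Eng* pass 36.9 CPM or *Msn* 8.41 CPM, so their sums came from cells on the plates with few #p1 cells.

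Markers of endothelial cells and macrophages lay in few cells. The 10 endothelial markers summed to 694 CPM in #p1 against 182, 165 and 57.4 in #p3, #p4 and #p5, and the 10 macrophage markers to 630 CPM against 132, 70.0 and 31.4. Over the 62 male cells the endothelial sum had a median of 70.1 CPM and a highest value of 11960, and the macrophage sum a median of 2.09 CPM and a highest value of 16384. The 2 highest cells held 82.8% of the endothelial and 81.7% of the macrophage counts. 1 cell on plate liver_1278s had 11960 CPM of endothelial markers, 1 on plate liver_708s had 10349 CPM of endothelial and 16384 CPM of macrophage markers, and 1 on plate liver_707s had 7281 CPM of macrophage markers. For scale, the median was 18313 CPM of the endothelial list in male endothelial cells and 22211 CPM of the macrophage list in male immune cells. These 3 cells held 5064, 5641 and 7700 CPM of hepatocyte markers, under the cluster's median of 13897 CPM and far over the medians of 58.4 and 45.02 CPM in male endothelial and immune cells.

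**Figure D5:**
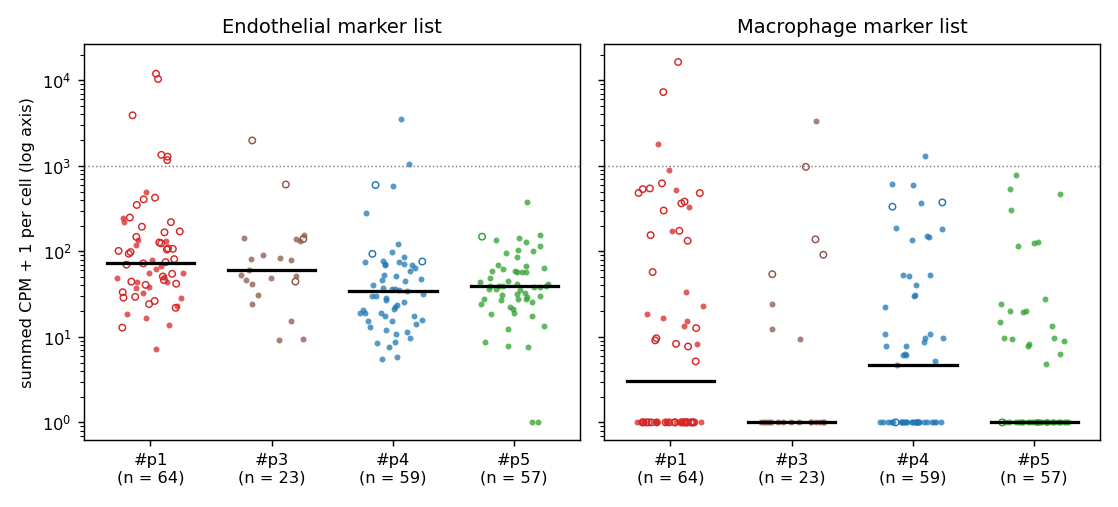
Summed CPM, with 1 added, of 10 endothelial markers (left) and 10 macrophage markers (right) per cell on a log axis in the 4 hepatocyte clusters, with filled points for plate liver_128s, open points for other plates, black lines for medians and a dotted line at a sum of 1000 CPM. In #p1 6 cells lie over the line for endothelial and 3 for macrophage markers, against 1 and 1 in #p3, 2 and 1 in #p4 and none in #p5.

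A sum over 1000 CPM in either list was found in 8 of 64 #p1 cells (12.5%), 2 of 23 in #p3, 3 of 59 in #p4 and none of 57 in #p5, and in 45 of 194 (23.2%) in #p2. Without these cells, the endothelial list stood at 98.0 CPM in #p1 against 87.5, 76.4 and 57.4 CPM in #p3, #p4 and #p5, and the macrophage list at 101 CPM against 58.1, 49.6 and 31.4. *Eng* then stood at 24.6 CPM in #p1. Of the endothelial markers 1 of 9 and 4 of 9 were then 2-fold or more higher than in #p3 and #p4 and 3 of 10 than in #p5, in place of 7 of 9, 8 of 10 and 9 of 10. Of the macrophage markers 7 of 9, 5 of 9 and 7 of 9 were still higher. The ribosomal protein counts were almost level without them, with 70, 62 and 63 of 77 genes higher, as were the plasma protein counts, with 17, 11 and 1 of 28 lower. On plate liver_128s the endothelial sum was 67.3 CPM in #p1, within the 54.2 to 146 CPM of the other clusters, and the macrophage sum was 219 CPM against 102, 58.7 and 32.6. Mesenchymal markers summed to 287 CPM (574, 356 and 345 in #p3, #p4 and #p5), mostly from *Dcn* at 165 CPM, but to 840 CPM on plate liver_128s, over the 294, 385 and 352 CPM there. Other leukocyte markers summed to 12.1 CPM and mesothelial markers to 1.51 CPM. The erythroid list summed to 546 CPM, of which *Alas2*, an enzyme of haem synthesis, gave 539, and the globin genes gave at most 4.20 CPM each. It stood at 207, 623 and 571 CPM in #p3, #p4 and #p5, and on plate liver_128s at 769 CPM in #p1 against 250.3, 684 and 521.

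The 116 cytochrome P450 genes summed to 6766 CPM in #p1 against 27223 in #p3, 5425 in #p4 and 8611 in #p5. Within plate liver_128s the sum was 12376 CPM in #p1 against 29875, 5453 and 8797, so that #p1 lay above #p5 there and below it in the pooled counts. Of 55 compared with #p3, 46 were 2-fold or more lower and 2 higher, and on plate liver_128s 32 of 51 were lower and 2 higher. Against #p4, 15 of 53 were higher and 23 lower, and on plate liver_128s 19 of 51 were higher and 16 lower. Against #p5, 7 of 50 were higher and 24 lower, beside 34.1% of all genes lower, and on plate liver_128s 14 of 49 were higher and 17 lower. *Cyp3a11*, which oxidises many drugs, stood at 657 CPM against 3314, 268 and 756, and *Cyp2c29* at 432 CPM against 2445, 31.0 and 612. All 17 UDP-glucuronosyltransferase genes with enough counts were lower than in #p3, at a sum of 3402 against 10415 CPM, while on plate liver_128s 8 of 17 were. Against #p4 and #p5 the pooled sums were near each other, at 3208 and 2953 CPM, with 0 of 16 genes higher in both and 2 and 1 lower. In #p1 on plate liver_128s the sum was 5967 CPM against 3450 and 3011, with 9 of 16 genes higher and 2 lower than in #p4, and 9 of 16 higher and 0 lower than in #p5. The *Ugt1a* genes share their last exons, so reads from those exons cannot be told apart. Glutathione S-transferases summed to 10811 CPM in #p1 and to 9411, 8107 and 12001 in the others, and *Gstp1* stood at 1244 CPM against 442, 832 and 422.

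Of the genes of bile acid synthesis 6 of 10, 3 of 9 and 5 of 10 were 2-fold or more lower in #p1 than in #p3, #p4 and #p5, beside 32.7%, 36% and 34.1% of all genes. On plate liver_128s 6 of 10, 3 of 9 and 4 of 10 were lower, beside 40.2%, 48.2% and 46.3%, so the shares against #p4 and #p5 were under those of all genes there. *Cyp7a1*, the rate-limiting enzyme of bile acid synthesis, had 1 count in 1 of 62 cells (0.11 CPM), against 111 CPM in #p3, 0.23 in #p4 and 32.5 in #p5. *Cyp7b1* stood at 14.8 CPM against 613, 78.9 and 70.4, and *Cyp8b1* at 52.8 CPM against 679, 107 and 171. Of the 13 genes of transport at the hepatocyte membrane 11 were 2-fold or more lower than in #p3 and none higher, 6 of 13 were lower and 3 higher than in #p4, and 7 of 12 were lower and none higher than in #p5. *Slc10a1*, which takes up bile salts from blood, stood at 138 CPM against 680, 219 and 145, and *Abcc2*, which exports conjugates into bile, at 0.11 CPM against 113, 42.3 and 7.73. The water and glycerol channel *Aqp9* stood at 5.82 CPM in #p1, from 3 of 62 cells, against 542 CPM from 18 of 23 cells in #p3. On plate liver_128s 12 of 13 transporter genes were lower than in #p3, 8 of 13 than in #p4, with 2 higher, and 8 of 12 than in #p5, with 1 higher.

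The urea cycle, which turns ammonia into urea, differed from gene to gene. Its 8 genes summed to 7961 CPM in #p1, between #p4 (11322) and #p3 and #p5 (4822 and 5486). Within plate liver_128s it was 4812 CPM in #p1, below the 11507 of #p4 and the 5457 of #p5 and near the 4626 of #p3, so the place above #p5 was not seen there. *Cps1*, the large enzyme at the entry of the cycle, stood at 316 CPM against 587, 1042 and 447, and had a count in 17 of 62 cells of #p1. After thinning it had one in 14 of 62, against 14 of 23, 55 of 59 and 24 of 57 in #p3, #p4 and #p5. On plate liver_128s *Cps1* stood at 60.8 CPM and *Asl*, argininosuccinate lyase, at 246 CPM, against 463 to 1065 and 432 to 1581 CPM in the others. Of the 13 genes of glucose metabolism 5 were lower in #p1 than in #p4 and none higher, near the 36% of all genes, and of 12 compared with #p3 5 were higher and 3 lower. On plate liver_128s 10 of 13 were lower than in #p4 and 4 of 12 lower than in #p3, and none was higher in either. *G6pc*, glucose-6-phosphatase, stood at 47.7 CPM against 390, 189 and 92.9.

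The 17 hepatocyte transcription factors summed to 1575 CPM in #p1, against 1393, 1741 and 2192 in #p3, #p4 and #p5, with a median over cells of 1442 CPM against 1285, 1620 and 2134. *Hnf4a*, a nuclear receptor that maintains hepatocyte identity, had a count in 10 of 62 cells, and after thinning in 9 of 62 against 8 of 23, 32 of 59 and 31 of 57 in #p3, #p4 and #p5. Its level was 141 CPM against 111, 301 and 386. *Rxra* stood at 53.4 CPM against 56.3, 108 and 249, and *Ppara* at 82.6 CPM against 169, 164 and 239. In the other direction *Cebpa* stood at 276 CPM against 212, 201 and 118 and *Foxa3* at 156 CPM against 49.2, 110 and 46.5, but *Foxa3* rested on 10 cells and ranged from 0 to 495 CPM between plates. Of the 17 factors 7 were 2-fold or more higher and 3 lower than in #p3, 5 higher and 4 lower than in #p4, and 6 higher and 6 lower than in #p5. On plate liver_128s 4 of 16 were higher and 3 lower than in #p3, 2 of 17 higher and 4 lower than in #p4, and 2 of 17 higher and 7 lower than in #p5, beside 28.2% and 40.2%, 16.9% and 48.2%, and 19.8% and 46.3% of all genes.

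The 29 immediate early and stress genes summed to 1371 CPM in #p1, against 1945, 849 and 759 in #p3, #p4 and #p5 and 13757 in #p2. Over cells the median was 944 CPM in #p1 against 722, 636 and 639 in #p3, #p4 and #p5. The highest #p3 cell held 16981 CPM, and the highest one on plate liver_128s 5360. *Fos* stood at 59.8 CPM against 353, 61.0 and 43.9, and *Egr1* at 69.6 CPM against 142, 26.1 and 17.4. Of 28, 28 and 27 compared, 5, 9 and 12 were 2-fold or more higher in #p1 and 9, 4 and 1 lower. Among all genes 31.3%, 20.8% and 24.8% were higher. On plate liver_128s more were higher, with 13 of 24, 11 of 28 and 17 of 27, and the list stood at 1461 CPM against 796, 876 and 681. There *Fos* and *Egr1* stood at 208 and 159 CPM in #p1 and at most at 113 and 32.4 CPM in the others. *Ddit3*, a transcription factor of the stress response of the endoplasmic reticulum, stood at 94.9 CPM against 5.76, 9.41 and 6.48, but it came from 5 cells and no plate with 8 or more #p1 cells passed 6.54 CPM. *Hmox1*, haem oxygenase, stood at 49.9 CPM and at 4.82 CPM without the cells over 1000 CPM of endothelial or macrophage markers. A list of 20 keratins, cytoskeletal and injury genes summed to 4856 CPM against 3828, 4506 and 4833, with 7 of 18, 5 of 19 and 4 of 17 higher in #p1 and 3, 3 and 1 lower. The higher ones were near the 31.3%, 20.8% and 24.8% of all genes. On plate liver_128s 9 of 17, 9 of 18 and 7 of 17 were higher, beside 28.2%, 16.9% and 19.8% of all genes. Without the cells over 1000 CPM of endothelial or macrophage markers 6 of 18, 2 of 19 and 1 of 17 were, beside 31.1%, 19.5% and 22.2%. *Krt8*, the partner of *Krt18*, stood at 351 CPM against 746, 709 and 995. Cell cycle genes summed to 137 CPM (80.4, 131 and 121 in the others) and, on plate liver_128s, to 271 CPM (83.7, 115 and 125), with a range of 3.03 to 271 CPM over the 4 plates with 8 or more #p1 cells. In #p1 *Top2a*, *Cdk1* and *Ccnb1* had no count and *Mki67* a count in 1 cell.

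Among the genes with the largest share of #p1 counts were *Rn18s.rs5*, a sequence of ribosomal RNA, at 1.87%, *Yam1* and *Yam1.1* at 1.24% and 1.04%, *Alb* at 0.59%, the mitochondrial ribosomal RNA *mt.Rnr2* at 0.57%, the sterol carrier *Scp2* at 0.52%, the carbonic anhydrase *Car3* at 0.50% and transferrin (*Trf*) at 0.44%. The 10 leading genes took 7.72% of the counts in #p1, 8.63% in #p3, 7.22% in #p4 and 7.76% in #p5. *Scp2* stood at 5239 CPM in #p1 against 4855, 6037 and 6436 in #p3, #p4 and #p5.

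Against the cholangiocytes of #p2, genes with the largest ratio in #p1 included *Hgd* of tyrosine breakdown (1350 against 0.14 CPM in #p2), *Cyp3a11* (657 against 0.018), *Pck1*, *Agxt*, *Hao1*, *Gls2*, *Tdo2*, *Fabp2* and *Acaa1b*. Those lowest in #p1 were *Scara3* (0.86 against 1446 CPM), *Muc1*, *Fgfr3*, *Slc5a1*, *Dcdc2a*, *Epcam*, *Krt23*, *Serinc2*, *Krt19* and the duct transcription factor *Sox9* (0.75 against 741 CPM). The ribosomal protein list was higher than in #p2 by a log2 ratio of 0.78 (0.53 as a mean over cells and 1.69 with median-of-ratios factors), with 27 of 78 genes 2-fold or more higher and 1 lower, and the mitochondrial genome list stood at 16269 and 15361 CPM, a log2 ratio of 0.08, which was -0.21 as a mean over cells, 0.79 with TMM and 0.99 with median-of-ratios factors.

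The authors' second clustering, called community, kept most of #p1 together. It put 56 of the 64 cells in a cluster of their own (#p3c) and 8 in #p1c, which also held 5 cells of #p4.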

How the data were processed

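Raw counts per gene and cell, deposited by the authors without normalization, were used. Per the submitters' processing notes, bcl2fastq, Bowtie or Bowtie2, featureCounts of Subread and Seurat were named, in no stated order, with the builds GRCm38 and mm10. Reads were single, and the role and version of the aligner and counter and the strand setting are not given in the sources used here. The authors had removed cells with few counts or genes, with many mitochondrial or spike-in counts or with so many genes that they could be doublets, and cells whose profile mixed cell types; no doublet caller was run here. Cell class, sex, plate and cluster are the authors' labels (clusters made by nearest-neighbour clustering), and 0 cell names were shared between plates.

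The 92 ERCC spike-in rows were left out, and the counts of each cluster's male cells were added up and scaled to counts per 1000000 (CPM). Ratios were taken on log2(CPM + 1) for genes with 20 counts or more in both clusters together, and 2-fold was the limit. With 1 male pool and clusters made from the same genes, no test was run. Intervals are exact (Clopper-Pearson, 95%) and cover counting error only; a count of 0 allows up to 3 of n. Named genes were those of the lists, up to 10 per direction and comparison with the largest ratio, up to 10 against #p3, #p4 and #p5 together, the 10 with the largest share of counts and the 10 with the highest ratio over every other cluster, each counted in at least 50% of cells of the higher cluster; some genes that the rule names are not reported here. The members, lists and rules were chosen with earlier results of these data known. The respiratory chain list, the length classes and the 1000 CPM limit were added after values had been seen. Exon lengths came from GENCODE vM21 by symbol. The 37 mitochondrial genes include the 13 protein-coding ones. Only the 2-fold rule was tested on simulated data, drawn from summed counts with no spread between cells or plates. Python 3.11.15, numpy 2.4.6, pandas 2.3.3 and scipy 1.17.1 were used, with edgeR 4.0.16 for TMM factors alone.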

Additional observations from a re-analysis of the deposited data

How the results depend on the processing

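Without any one plate in turn, the genes 2-fold or more higher in #p1 numbered 3092 to 3544 against #p3, 2299 to 4104 against #p4, 2617 to 2774 against #p5 and 2431 to 2641 against #p2, and the lower ones 2426 to 3546, 1633 to 4522, 3797 to 4008 and 7428 to 9169. Plate liver_128s gave the extremes against #p4 (4104 higher and 1633 lower without it), where 3 cells of #p4 were left; against #p5 it could not be left out, since 1 cell remained. Median-of-ratios factors gave 3848 genes higher than in #p2, in place of 2502. Other scalings, pseudocounts, thinning, the filter, shared plates, the community cluster, and, chosen after seeing the data, plate liver_128s alone (not run against #p2) and the removal of cells over 1000 CPM of endothelial or macrophage markers kept these counts over all genes within 1.5 times. Counts of list members moved more: on plate liver_128s respiratory chain genes higher than in #p4 went from 49 to 3, and without the marker-rich cells endothelial markers higher than in #p3 went from 7 to 1. Shares of cells at 20 counts were 93.8% for *Alb*, 42.2% for *Krt18* and 87.5% for *Apoa1*. Thinned or averaged over cells, the #p1 level was 9799 or 9837 CPM for periportal genes (11957 from sums), 11025 or 11020 for pericentral (8952), 28660 or 28556 for plasma protein (26570), 23264 or 23206 for ribosomal protein (24547) and 16633 or 16621 for mitochondrial genes (16269). The median depth was 191121 counts on plate liver_705s and 216843 on plate liver_707s. No paired analysis was possible because the clusters compared lie within 1 pooled sample and the labels give no replicate numbers that pair them; values within plates stand beside the pooled ones instead.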

Other observations

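The 2 female cells of #p1 entered no summed comparison of male cells, but are among the 64 cells counted by zone, by marker level and against the 30 clusters. 1 lay on plate liver_061s with 53333 counts and 2190 genes, and 1 on plate liver_845s with 104711 counts and 3024 genes, each on a plate made up almost wholly of endothelial cells. Both had more periportal than pericentral CPM (17194 against 3563, and 35784 against 181), and endothelial markers stood at 3900 and 1165 CPM. In their summed counts *Alb* stood at 14623 CPM and *Hal* at 7447 CPM, each from both cells. *Cyp17a1*, a steroid hydroxylase, stood at 4783 CPM and *Plg* at 9402 CPM, each from 1 of the cells, and *Cyp17a1* had no count in the 62 male cells. *Mup20*, a male-biased urinary protein gene, had no count in either female cell and a count in 60 of the 62 male cells, and *Cyp2e1* had none in either and a count in 53 male cells. *Xist*, expressed from the inactive X chromosome, had no count in these 2 cells or in the 62 male cells, while it had one in 37 of 37 female #p2 cells, and the Y-linked *Ddx3y* and *Eif2s3y* had none. The Y-linked genes had a count in no more than 10 and 11 of the 62 male #p1 cells (16.1% and 17.7%), so their absence from 2 cells carries little information on sex. A list of 8 male-biased liver genes had no count in either female cell and summed to at least 40.3 CPM in every male #p1 cell. A list of 9 female-biased ones stood at 0 and 7220 CPM in the 2 female cells, and at most at 7.27 CPM in a male #p1 cell.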
